A study of Mus musculus with 24 samples.

Results

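The earliest response to pressure overload was followed in the left ventricle of mouse hearts at day 2 of transverse aortic constriction (TAC, surgery in which the aorta is narrowed) by setting the 3 TAC libraries of day 2 against the 3 sham libraries of day 2. These 6 libraries were chosen by the operation and day in their labels and are 6 of 24 in the series, which holds TAC and sham hearts at days 2, 4, 7 and 21 with 3 libraries in each of 8 groups. Hearts 2 days after TAC form the constricted group, and hearts 2 days after the sham operation form its control. Strain, sex and age are not given in the labels used here, and no allele or drug is named for either group. RNA-seq read counts of 24015 genes were deposited, and 13816 genes had enough reads to be tested. The labels do not say whether the 3 libraries of a group come from separate animals. The p-values rest on the spread between libraries within the 8 groups, estimated over all 24 libraries, and this spread may be technical.

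When the aorta is narrowed, the left ventricle has to pump against a raised pressure, and its muscle cells enlarge over days to weeks, which is called hypertrophy. In the mouse ventricle this growth is known for a return of genes of the fetal heart, such as those of natriuretic peptides, beta myosin and skeletal actin, for more cytoskeleton and ribosomes, for fibroblast activation with deposition of collagen, for entry of macrophages, and for lower expression of genes that burn fatty acids. Sham surgery opens the chest without narrowing the aorta, so the comparison leaves aside what the wound itself does to the heart.

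The 6 libraries held 13072020 to 17281439 counted reads. Levels are given as CPM (counts divided by the library total and multiplied by 1000000), scaled between libraries by TMM (trimmed mean of M-values), and are compared within a gene only, since they are not divided by gene length. Changes are log2 fold changes of TAC over sham with their standard error (SE), and a gene is called changed at an adjusted p under 0.05 in the quasi-likelihood test of edgeR, with p-values adjusted by Benjamini-Hochberg over every gene tested. The 14 genes of the cardiomyocyte list summed to 166000 to 203000 CPM in TAC and 188000 to 209000 CPM in sham libraries. The atrial light chain gene Myl7 was at 0.483, 9.54 and 2.19 CPM in TAC replicates 1 to 3 and at 0, 38.5 and 95.1 CPM in sham replicates 1 to 3, and its part in the results was not tested beyond the alternatives of the closing section.

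TAC replicate 1 stood apart from the other TAC libraries and lay close to sham. Across all genes tested, the slope of each TAC library's difference from the sham mean on the mean TAC effect of days 4, 7 and 21, which uses no day 2 library, was 0.0878 for TAC replicate 1, 0.635 for TAC replicate 2 and 0.867 for TAC replicate 3. The sham libraries had slopes of -0.0257, -0.00377 and 0.0295 against the mean of their other 2 libraries. TAC replicate 1 also carried 2106 CPM of Esr1, the estrogen receptor gene, while each of the other 23 libraries of the series had 11 CPM or less. Esr1 was thereby among the genes called higher, at a log2 fold change of 8.94 ± 1.77 (adjusted p = 0.0100). Without TAC replicate 1 its change was 0.99 and it was not called (adjusted p = 0.356). In 8 genes TAC replicate 1 lay more than 4-fold below all other 23 libraries, while none of those 23 did so in any gene. Among the 8, Mndal was at 5.47 CPM against 34.6 to 76.6 CPM in the other libraries, Hsd17b7 at 3.22 against 18.1 to 33.8 CPM, and Art4 at 2.41 against 10.4 to 27.8 CPM; these were singled out after their values were seen. What sets this library apart was not tested, and the counts of gene lists that follow are given with and without it. Many of them also depend on TAC replicate 3 and sham replicate 2.

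At day 2, 633 genes were called, 515 higher and 118 lower in TAC, which is 4.58%, 3.73% and 0.854% of the genes tested. Without TAC replicate 1 the counts were 1242 higher and 593 lower, or 8.87% and 4.23% of 14003 genes tested, and 504 of the 515 higher and 113 of the 118 lower genes were called again. The sham libraries decided calls as well: leaving out TAC replicate 2 gave 352 calls, TAC replicate 3 gave 12, and sham replicates 1, 2 and 3 gave 112, 12 and 96. The plot of calls by left-out library shows that removing TAC replicate 1 alone raised the count. The 633 calls use a spread estimated over all 24 libraries of the series. With the 6 day 2 libraries fitted by themselves, edgeR called 0 genes and left 2418 at an unadjusted p under 0.05. Limma voom called 0 with 2355, and DESeq2 called 622.

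**Figure D1:**
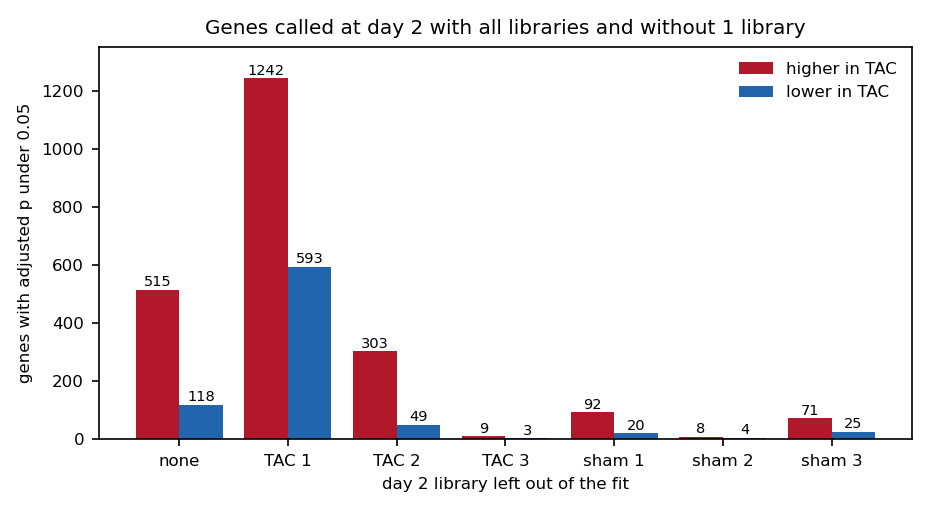
Number of genes with an adjusted p under 0.05 (vertical axis, from 0) that were higher (red) or lower (blue) in TAC than in sham at day 2, with all 6 day 2 libraries and with 1 of them left out (horizontal axis). The counts are 515 and 118 with all libraries, 1242 and 593 without TAC replicate 1, and 9 and 3 without TAC replicate 3.

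TAC replicate 1 moved with the others in part. Of the 515 higher genes, it lay above all 3 sham libraries in 443 (86%), with a median difference from the sham mean of 0.38 on the log2 scale, against 0.998 in TAC replicate 2 and 1.503 in TAC replicate 3. Of the 118 lower genes it lay below all 3 sham libraries in 117 (99.2%), with medians of -0.52, -0.62 and -0.73 in TAC replicates 1 to 3. Across all 13816 genes, TAC replicate 1 was above the sham range in 29.9% and below it in 30.6%. The higher and lower genes were chosen with this library in the fit, so these shares are a description.

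Genes that mark hypertrophy of heart muscle rose within 2 days, and TAC replicate 1 shared the rise of those named here. Of 19 tested hypertrophic marker genes, 12 rose and 0 fell, with a median log2 fold change of 1.62, beside a median of -0.0023 over all genes tested and 3.73% of these called higher. Without TAC replicate 1, 13 rose, where 8.87% of all genes tested did. Without TAC replicate 3 or sham replicate 2, 0 were called. The list's medians above the sham mean were 0.38, 1.30 and 1.93 in TAC replicates 1 to 3. TAC replicate 1 lay above all sham libraries in 11 of the 19 and below them in 2. TAC replicates 2 and 3 lay above them in 15 and 16. Myh7, which encodes the beta myosin heavy chain of the fetal ventricle, was at 1626, 4088 and 2820 CPM in TAC replicates 1 to 3 and at 56.9, 137 and 388 CPM in sham replicates 1 to 3. All 3 TAC libraries lay above all sham libraries, although the sham libraries differed among themselves by a larger ratio than the TAC libraries did. Myh7 rose by 3.88 ± 0.73 (SE) on the log2 scale, adjusted p = 0.00822, and by 4.16 without TAC replicate 1.

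Nppa, the gene of atrial natriuretic peptide, was at 754, 1069 and 1541 CPM in TAC and at 142, 169 and 258 CPM in sham libraries, with no overlap, and rose by 2.56 ± 0.49 (adjusted p = 0.00891). Acta1, which encodes skeletal muscle alpha actin, was at 640, 1035 and 1114 CPM in TAC and at 245, 189 and 158 CPM in sham libraries. Its lowest TAC value is that of TAC replicate 1, still above every sham library, and it rose by 2.24 ± 0.43 (adjusted p = 0.00891). Ankrd1, which encodes a stretch-responsive protein of the sarcomere, was at 2005, 4410 and 5567 CPM in TAC and at 1066, 888 and 1361 CPM in sham libraries, a rise of 1.85 ± 0.33 (adjusted p = 0.00769). Nppb, the gene of B-type natriuretic peptide, rose by 1.92 ± 0.36 (adjusted p = 0.00821). TAC replicate 1 had the lowest TAC value in each of these genes and lay above the sham libraries in all of them. The contractile genes of the adult ventricle were not called. Of 20 sarcomere genes and 21 genes of calcium handling, 0 were called in either direction, and without TAC replicate 1 the lower calls were 1 and 3. Myh6, the alpha myosin heavy chain of the adult mouse ventricle, was at 44080, 35730 and 31740 CPM in TAC and at 46370, 50870 and 45460 CPM in sham libraries (-0.36 ± 0.20, adjusted p = 0.338). Atp2a2, which pumps calcium into the sarcoplasmic reticulum, changed by -0.42 ± 0.18 with an adjusted p of 0.181, and by -0.58 with an adjusted p of 0.0406 without TAC replicate 1.

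**Figure D2:**
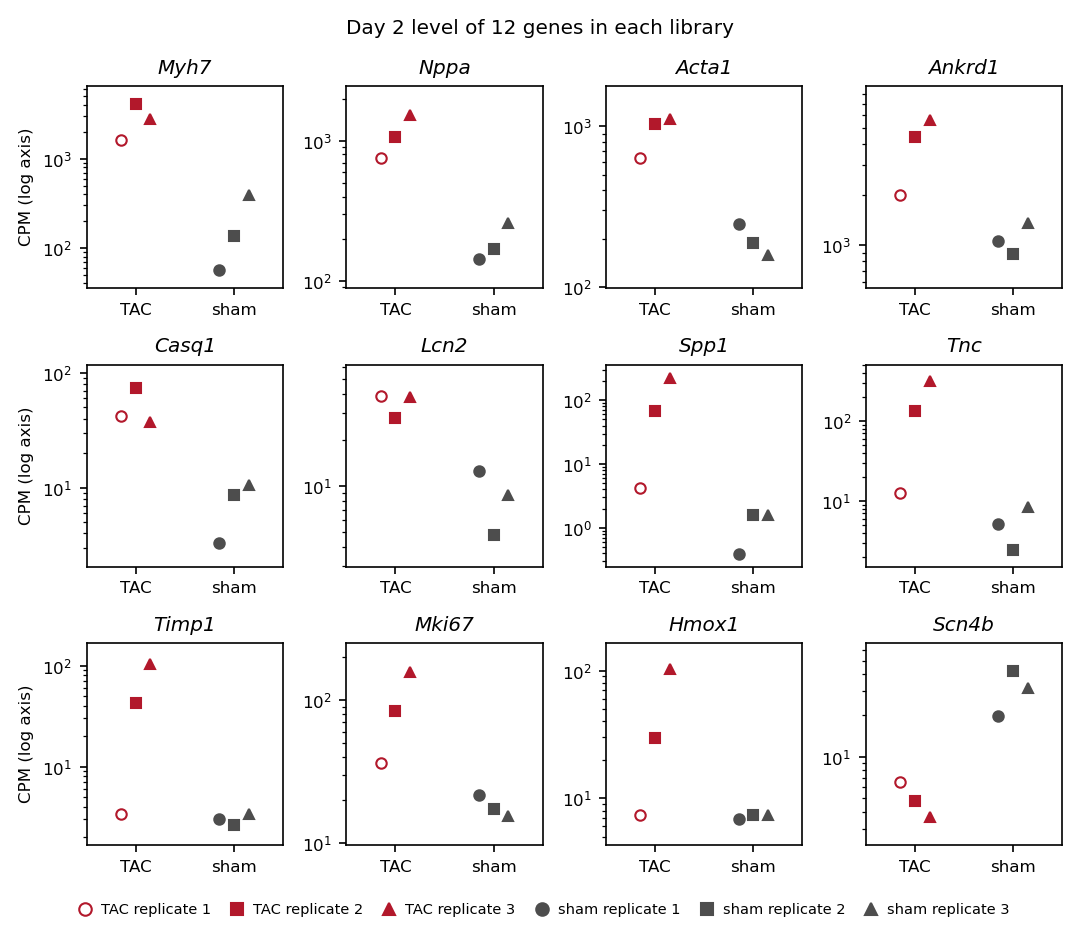
Level of 12 genes (CPM, logarithmic axes that differ between panels) in the 3 TAC libraries (red, left) and the 3 sham libraries (grey, right) of day 2; each point is 1 library, and the open circle is TAC replicate 1. Myh7, Nppa, Acta1, Ankrd1, Casq1 and Lcn2 are above sham in all TAC libraries, Timp1 and Hmox1 of TAC replicate 1 are at sham level, and Scn4b is below sham in all TAC libraries.

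Genes of the cytoskeleton and focal adhesions formed another group that rose, and which cell type carried this rise was not tested. Of 32 tested genes of the cytoskeleton and focal adhesions, 22 rose and 0 fell, with a median of 0.66, and 28 rose without TAC replicate 1; without TAC replicate 3 or sham replicate 2, 1 was called in each case. Of all genes tested, 3.73% were called higher with all libraries and 8.87% without TAC replicate 1. Medians of the list by library were 0.19, 0.65 and 1.09 above the sham mean in TAC replicates 1 to 3. Pfn1, which encodes the actin-binding protein profilin, was at 127, 139 and 187 CPM in TAC and at 96.9, 96.1 and 99.2 CPM in sham libraries. The sham values lay within a narrow range that no TAC library reached, and Pfn1 rose by 0.63 ± 0.10 (adjusted p = 0.00579), a call that held when any single day 2 library was left out. Nrap, a protein of the forming myofibril, rose by 0.65 ± 0.13 (adjusted p = 0.00891). Capg, which caps actin filaments, and Tubb6, a beta tubulin, rose by 1.51 ± 0.27 and 1.56 ± 0.31.

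Genes of cell division were raised by large factors. Of 40 tested genes of mitosis, 30 rose and 0 fell, with a median log2 fold change of 2.20, and 36 rose without TAC replicate 1. Their medians above the sham mean were 0.69, 1.97 and 2.62 in TAC replicates 1 to 3. The calls numbered 22 without TAC replicate 2, 10 without sham replicate 1, 6 without sham replicate 3, and 0 without TAC replicate 3 or sham replicate 2. DESeq2 called 33, limma voom 1, and limma voom with sample quality weights 36 higher and 1 lower. The fit with quality weights called 1791 of all 13816 genes tested higher. Mki67, a marker of cycling cells, was at 36.2, 84.4 and 157 CPM in TAC and at 21.5, 17.3 and 15.3 CPM in sham libraries. The groups did not overlap, with TAC replicate 1 nearest to sham, and Mki67 rose by 2.36 ± 0.42 (adjusted p = 0.00769). Top2a, which encodes the DNA topoisomerase of dividing cells, was at 5.39, 16.8 and 29.7 CPM in TAC and at 3.10, 2.30 and 1.51 CPM in sham libraries, a rise of 2.92 ± 0.51 (adjusted p = 0.00769). Ccna2, cyclin A2, and Tpx2, a spindle assembly factor, rose by 2.66 ± 0.49 and 2.72 ± 0.49. DNA replication followed with 10 of 40 genes up and 0 down, a median of 0.64, and 21 up without TAC replicate 1. Its calls numbered 6 without TAC replicate 2, 1 without sham replicate 1 or 3, and 0 without TAC replicate 3 or sham replicate 2. DESeq2 called 15 of them and limma voom 0. Of all genes tested, 3.73% were called higher with all libraries and 8.87% without TAC replicate 1. Among the 10 risen genes, Uhrf1, which couples DNA methylation to replication, rose by 2.92 ± 0.54. Mcm5, a subunit of the replicative helicase, rose by 1.98 ± 0.42. Macrophage genes also rose in these libraries, and in bulk RNA more cells of a type cannot be told apart from more RNA per cell, nor can the dividing cell type be told from these data.

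The promoters of the mitosis genes are shown because these genes moved together. Cell cycle genes of late G2 and mitosis are known to carry a CHR element (TTTGAA, or TTCAAA on the other strand) near the start of transcription, often with CCAAT boxes (CCAAT, or ATTGG on the other strand). RefSeq promoters (GRCm38.p6, from upstream to just past the start of transcription) were at hand for 24 of the 30 risen mitosis genes. TTTGAA on either strand was in 18 of them (75.0%), against 14.2% of the 10293 tested genes with a promoter, and CCAAT was also in 18 (75.0%), against 42.5%. Over all 34 tested mitosis genes with a promoter, risen or not, 26 held TTTGAA. A match describes these letters only and is no binding site. The promoters of Top2a (chr11:99024140-99024439, minus strand) and Mki67 (chr7:135716330-135716629, minus strand) follow 5′ to 3′, with both elements in capitals on either strand.
Top2a: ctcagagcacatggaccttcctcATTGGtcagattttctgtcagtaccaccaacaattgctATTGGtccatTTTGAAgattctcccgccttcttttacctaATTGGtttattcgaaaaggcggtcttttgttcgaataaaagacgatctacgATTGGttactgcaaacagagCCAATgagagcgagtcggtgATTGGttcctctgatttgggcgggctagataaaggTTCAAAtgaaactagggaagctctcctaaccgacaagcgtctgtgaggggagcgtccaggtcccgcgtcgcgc
Mki67: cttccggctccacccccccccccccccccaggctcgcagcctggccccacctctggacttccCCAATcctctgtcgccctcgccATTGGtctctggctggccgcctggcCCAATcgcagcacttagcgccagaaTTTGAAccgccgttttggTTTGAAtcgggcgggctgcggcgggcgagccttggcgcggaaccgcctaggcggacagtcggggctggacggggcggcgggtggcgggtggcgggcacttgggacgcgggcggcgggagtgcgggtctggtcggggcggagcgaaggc

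In Top2a the CHR matches start 179 and 23 bases before the start of transcription, and the promoter holds 6 CCAAT matches. In Mki67 they start 116 and 98 bases before it, with 3 CCAAT matches.

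Genes of protein folding in the endoplasmic reticulum and of the ribosome were raised by smaller factors, and TAC replicate 1 shared much of this. Of 25 tested genes of the unfolded protein response, 11 rose and 0 fell, with a median of 0.48 and medians by library of 0.23, 0.34 and 0.67. Without TAC replicate 1, 15 rose, and without TAC replicate 3 or sham replicate 2 the count was 0. Of all genes tested, 3.73% were called higher with all libraries and 8.87% without TAC replicate 1. Pdia6, a disulfide isomerase, was at 85.2, 82.8 and 118 CPM in TAC and at 53.2, 48.6 and 54.4 CPM in sham libraries. TAC replicate 1 was as high as TAC replicate 2, and Pdia6 rose by 0.87 ± 0.15 (adjusted p = 0.00769). Manf, a secreted factor of the stressed endoplasmic reticulum, was at 23.0, 25.8 and 40.4 CPM in TAC and at 13.9, 12.7 and 16.8 CPM in sham libraries, a rise of 1.05 ± 0.20 (adjusted p = 0.00821). Sdf2l1, a partner of the chaperone BiP, and Creld2, a secreted chaperone-like protein, rose by 1.46 ± 0.27 and 0.94 ± 0.18.

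The unfolded protein response is known to act through the ERSE element, here searched as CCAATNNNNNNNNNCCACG or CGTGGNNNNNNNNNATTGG on the other strand. It contains the CCAAT letters of the search above. Of the 11 risen genes of the list, 9 had a RefSeq promoter, and 5 of these (55.6%) held ERSE, against 15 of 10293 tested genes (0.146%); of all 20 tested members with a promoter, 8 held it. Shown with ERSE in capitals, 5′ to 3′, are the promoters of 2 of them, Pdia6 (chr12:17266339-17266638, plus strand) and Creld2 (chr15:88819396-88819695, plus strand).
Pdia6: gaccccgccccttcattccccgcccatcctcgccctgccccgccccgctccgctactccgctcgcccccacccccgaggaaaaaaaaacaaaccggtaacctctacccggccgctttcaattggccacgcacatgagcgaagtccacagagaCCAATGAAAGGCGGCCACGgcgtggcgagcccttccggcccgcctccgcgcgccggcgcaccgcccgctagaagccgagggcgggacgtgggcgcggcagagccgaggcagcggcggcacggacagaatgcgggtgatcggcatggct
Creld2: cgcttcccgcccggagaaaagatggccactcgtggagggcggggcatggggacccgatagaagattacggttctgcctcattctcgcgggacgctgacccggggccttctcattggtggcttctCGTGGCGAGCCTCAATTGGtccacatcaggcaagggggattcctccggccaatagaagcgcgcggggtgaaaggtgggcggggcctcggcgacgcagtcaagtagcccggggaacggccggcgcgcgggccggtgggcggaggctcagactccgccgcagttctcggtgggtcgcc

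The match starts 98 bases before the start of transcription in Pdia6 and 126 bases before it in Creld2, where it lies on the other strand. As for the mitosis genes, the letters describe the sequence and show no binding.

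Of 39 tested genes of cytosolic ribosomal proteins, 18 rose and 0 fell, with a median of 0.35, and 29 rose without TAC replicate 1; without TAC replicate 3 or sham replicate 2, 0 were called. In 34 of the 39 the TAC and sham libraries did not overlap, TAC above sham, where 11.2% of all genes tested had this order. TAC replicate 1 was above all sham libraries in 37 of 39, TAC replicate 2 in 36 and TAC replicate 3 in 39. Rpl12 was at 213, 236 and 300 CPM in TAC and at 169, 157 and 173 CPM in sham libraries, a rise of 0.59 ± 0.10 (adjusted p = 0.00769). Rplp1, of the ribosomal stalk, was at 175, 151 and 169 CPM in TAC and at 118, 111 and 124 CPM in sham libraries, so that TAC replicate 1 was the highest library, and it rose by 0.49 ± 0.10. Rpl3 rose by 1.09 ± 0.20. Ribosomal protein genes have many processed pseudogenes with near-identical sequence, and the sources used here do not say how the authors' counting shared reads among them. Of 39 genes of ribosome biogenesis 2 rose, a share near the 3.73% of all genes tested, and 13 rose without TAC replicate 1, 1 without TAC replicate 2, and 0 without TAC replicate 3 or any of the sham libraries. Npm1, the nucleolar histone chaperone nucleophosmin, rose by 0.35 ± 0.10. The list's median was 0.010 in TAC replicate 1 and 0.18 and 0.48 in TAC replicates 2 and 3. Eif4ebp1, which encodes a repressor of cap-dependent translation, rose by 0.66 ± 0.12 (adjusted p = 0.00769).

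**Figure D3:**
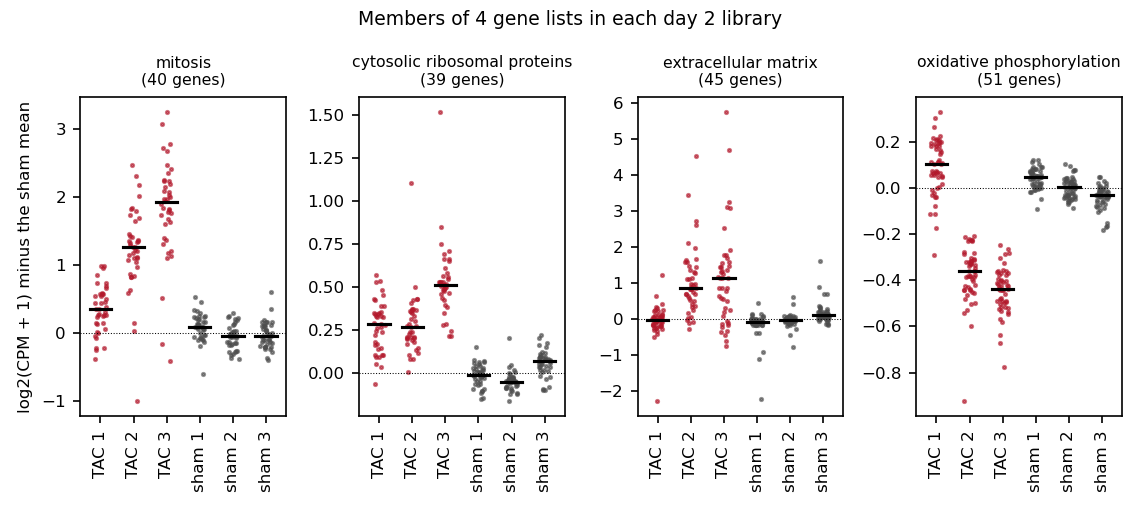
Each point is 1 gene of a list in 1 day 2 library, TAC libraries in red on the left and sham libraries in grey on the right, as log2(CPM + 1) minus the mean of the 3 sham libraries (vertical axes differ between panels); bars are medians. Ribosomal protein genes are above the sham mean in all 3 TAC libraries, while in oxidative phosphorylation TAC replicate 1 is on the side opposite to TAC replicates 2 and 3.

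Matrix and fibroblast genes separated TAC replicate 1 from the others. Of 45 tested genes of the extracellular matrix, 4 rose and 0 fell with all libraries, where 3.73% of all genes tested rose. Without TAC replicate 1, 18 rose, where 8.87% of all genes tested did. The list's median was 0.70, made up of -0.015 in TAC replicate 1, 0.89 in TAC replicate 2 and 1.15 in TAC replicate 3. Tnc, the gene of tenascin-C, a matrix protein of injured tissue, was at 12.7, 134 and 316 CPM in TAC and at 5.14, 2.42 and 8.46 CPM in sham libraries. It rose by 4.88 ± 0.87 (adjusted p = 0.00769), with no overlap. Timp1, an inhibitor of matrix metalloproteinases, was at 3.38, 42.6 and 104 CPM in TAC and at 3.03, 2.66 and 3.37 CPM in sham libraries. TAC replicate 1 was at the level of the highest sham library, while TAC replicates 2 and 3 were far above all sham libraries, and Timp1 rose by 4.06 ± 0.83 (adjusted p = 0.0109) and by 4.60 without TAC replicate 1. Fbln2, fibulin-2, and P4hb, a subunit of the collagen-modifying prolyl hydroxylase, rose by 0.80 ± 0.21 and 0.62 ± 0.12. The collagens were not called: Col1a1 was at 180, 524 and 575 CPM in TAC and at 177, 179 and 221 CPM in sham libraries (1.15 ± 0.53, adjusted p = 0.225), and its adjusted p was 0.0636 without TAC replicate 1. Col3a1 had 1.22 ± 0.47 (adjusted p = 0.143) and passed without TAC replicate 1, at 1.58 and an adjusted p of 0.0267.

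Lox, Fn1 and Postn passed when TAC replicate 1, their lowest TAC library, was left out. Leaving out the lowest library raises a fold change by construction, so these passes are a description. Lox, which crosslinks collagen, was at 20.3, 97.3 and 151 CPM in TAC and at 20.9, 10.7 and 15 CPM in sham libraries, and Fn1, fibronectin, was at 141, 377 and 705 CPM in TAC and at 112, 108 and 144 CPM in sham libraries. Their log2 fold changes were 2.54 ± 0.81 (adjusted p = 0.0801) and 1.75 ± 0.56 (adjusted p = 0.0778) with all libraries, and 3.0 and 2.16 without TAC replicate 1, with adjusted p-values of 0.0163 and 0.0118. Postn, periostin, a product of activated fibroblasts, stood at 1.75 ± 0.61 (adjusted p = 0.110) and at 2.11 (adjusted p = 0.0316) without TAC replicate 1. Of 18 genes of activated fibroblasts 2 rose, Ctgf and Cnn1, and 6 rose without TAC replicate 1. Ctgf, a matricellular growth factor, was at 88.6, 187 and 278 CPM in TAC and at 30.8, 23.2 and 49.0 CPM in sham libraries and rose by 2.43 ± 0.48 (adjusted p = 0.0101). Cnn1, calponin of smooth muscle and myofibroblasts, rose by 2.73 ± 0.64. In the TGF-beta pathway 3 of 23 genes rose, and 5 rose and 2 fell without TAC replicate 1. The ligand genes Tgfb2 and Inhba rose by 1.38 ± 0.39 and 2.27 ± 0.63. Of 17 genes of resident fibroblasts 0 were called, and 2 fell without TAC replicate 1. Without TAC replicate 3 or sham replicate 2, 0 genes of the matrix, activated fibroblast and TGF-beta lists were called. Of all genes tested, 3.73% were called higher with all libraries. Without TAC replicate 1, 8.87% were called higher and 4.23% lower.

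Genes of macrophages and of chemokines rose, with the highest medians in TAC replicate 3. Of 32 tested genes of macrophages and monocytes 11 rose and 0 fell, with a median of 0.85. By library the medians above the sham mean were 0.19, 0.84 and 1.24 in TAC replicates 1 to 3. Sham replicate 1 was at 0.32 against the mean of the other sham libraries only, so its baseline differs from that of TAC replicate 1. Without TAC replicate 1, 19 rose and 1 fell, where 8.87% of all genes tested rose and 4.23% fell. Without TAC replicate 3 or sham replicate 2 the count was 0. The whole list summed to 521 to 1100 CPM in TAC and 391 to 527 CPM in sham libraries. Spp1, the gene of osteopontin, was at 4.26, 68.8 and 226 CPM in TAC and at 0.395, 1.57 and 1.58 CPM in sham libraries. It rose by 6.39 ± 1.13 (adjusted p = 0.00769), with no overlap, and its level depends on few reads in sham. Lgals3, galectin-3, and Itgam, the CD11b integrin of myeloid cells, rose by 3.13 ± 0.56 and 1.61 ± 0.30, and the lysosomal marker Cd68 by 1.30 ± 0.26. Among cytokines and chemokines 5 of 25 genes rose, where 3.73% of all genes tested did, 10 without TAC replicate 1 and 0 without TAC replicate 3 or sham replicate 2. Ccl2, which attracts monocytes, was at 2.73, 8.73 and 29.6 CPM in TAC and at 2.24, 2.24 and 2.29 CPM in sham libraries, a rise of 2.61 ± 0.57 (adjusted p = 0.0149). Ccl7, a related chemokine, rose by 2.38 ± 0.49, and Il1rn, the antagonist of the interleukin-1 receptor, by 3.62 ± 0.67. Of 22 genes of the interleukin-6 family and its Stat3 targets, 5 rose, and without TAC replicate 1, 11 rose and 1 fell; 1 rose without TAC replicate 3 and 0 without sham replicate 2. Stat3 itself rose by 0.48 ± 0.10, and Il4ra, an interleukin-4 receptor subunit, by 1.27 ± 0.29. Other blood cells were near the floor: of 16 listed neutrophil genes only 6 passed the filter on low counts, and of 19 lymphocyte genes 6 passed and 0 were called, or 1 without TAC replicate 1. The neutrophil list summed to 43.6 to 66.2 CPM in TAC and 15.6 to 21.2 CPM in sham libraries, of which Lcn2, its 1 called member, made up 28.1 to 39.0 CPM in TAC and 4.78 to 12.6 CPM in sham libraries; without TAC replicate 1, 3 of the 6 were called.

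Lcn2, which encodes the iron-binding lipocalin-2 of acute phase responses, was high in every TAC library. It was at 39.0, 28.1 and 38.6 CPM in TAC and at 12.6, 4.78 and 8.75 CPM in sham libraries, so TAC replicate 1 was as high as the others. It rose by 2.02 ± 0.31 (adjusted p = 0.00517). Mt2, a metallothionein, was at 30, 38.3 and 39.8 CPM in TAC and at 17.5, 11.9 and 13.1 CPM in sham libraries and rose by 1.35 ± 0.22 (adjusted p = 0.00579). Hmox1, the heme oxygenase of oxidative stress, showed the opposite spread, at 7.32, 29.5 and 102 CPM in TAC and at 6.85, 7.44 and 7.38 CPM in sham libraries. Its TAC replicate 1 lay inside the sham range, and it rose by 2.69 ± 0.52 (adjusted p = 0.00891) and by 3.19 without that library. Of 27 immediate early genes 6 rose, 11 without TAC replicate 1 and 0 without TAC replicate 3, sham replicate 1 or sham replicate 2. Among the 6 were Ier3, Btg2 and Myc, which rose by 0.93 ± 0.18, 0.73 ± 0.17 and 1.49 ± 0.34. Of 30 genes of the integrated stress response 3 rose, with 7 higher and 1 lower without TAC replicate 1 and 0 called without TAC replicate 3 or sham replicate 2. They include Psat1 and Phgdh, enzymes of serine synthesis, which rose by 2.47 ± 0.46 and 1.93 ± 0.50. Of 25 heat shock genes 4 rose, 5 without TAC replicate 1 and 0 without TAC replicate 3, sham replicate 2 or sham replicate 3. Hspb1, a small heat shock protein, rose by 1.05 ± 0.24. Beside the counts of these 3 lists, 3.73% of all genes tested were called higher with all libraries. Without TAC replicate 1, 8.87% were called higher and 4.23% lower. Hbegf, a ligand of the EGF receptor that acts on the heart muscle, rose by 1.16 ± 0.26 and Igf2, insulin-like growth factor 2, by 0.47 ± 0.13. Fgf9, a fibroblast growth factor, fell by 0.69 ± 0.17 on the log2 scale.

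Fewer genes fell, and in those named here TAC replicate 1 was low with the other TAC libraries. Scn4b, a beta subunit of the cardiac sodium channel, was at 6.60, 4.74 and 3.65 CPM in TAC and at 19.8, 41.9 and 31.4 CPM in sham libraries, and fell by 2.65 ± 0.42 on the log2 scale (adjusted p = 0.00579). The potassium channel genes Kcnv2 and Kcna7 fell by 1.42 ± 0.34 and 0.74 ± 0.20 on the log2 scale. Together these are 3 of 25 tested sodium and potassium channel genes, with 0 higher, where 0.854% of all genes tested were called lower. Of these channel genes 6 fell without TAC replicate 1, 1 without TAC replicate 2 or any 1 of the sham libraries, and 0 without TAC replicate 3. Fah, the last enzyme of tyrosine breakdown, was at 16.9, 13.1 and 12.7 CPM in TAC and at 27.2, 34.6 and 31.6 CPM in sham libraries, and fell by 1.14 ± 0.16 (adjusted p = 0.00517). As3mt, an arsenite methyltransferase, was at 27.7, 33.2 and 28.7 CPM in TAC and at 46.8, 50.1 and 45.9 CPM in sham libraries, and fell by 0.67 ± 0.10 (adjusted p = 0.00517). Gpt2, a mitochondrial alanine transaminase, and Fndc5, the precursor of irisin, fell by 0.74 ± 0.19 and 0.74 ± 0.17. Of 27 endothelial genes 3 fell and 0 rose, namely the receptors Kdr, Tie1 and Tek, where 0.854% of all genes tested fell. Without TAC replicate 1, 7 were lower and 2 higher, where 4.23% and 8.87% of all genes tested were. The lower calls numbered 2 without TAC replicate 2, 1 without sham replicate 1 or 3, and 0 without TAC replicate 3 or sham replicate 2. Kdr, the main VEGF receptor of endothelium, was at 195, 180 and 176 CPM in TAC and at 304, 294 and 244 CPM in sham libraries, and fell by 0.61 ± 0.12 (adjusted p = 0.0104). Tie1 and Tek fell by 0.52 ± 0.10 and 0.30 ± 0.08. The whole endothelial list summed to 2200 to 2630 CPM in TAC and 2790 to 2870 CPM in sham libraries.

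Genes of energy metabolism divided the TAC libraries. Of 51 tested genes of oxidative phosphorylation, 0 were called with all libraries and 4 were lower at an unadjusted p under 0.05, where 1047 of all 13816 genes tested were, so this count is near the background. The list's median was -0.22, and 6 fell without TAC replicate 1, where the median was -0.43. All 51 were below all sham libraries in TAC replicate 2 and all 51 in TAC replicate 3, where 33.6% and 37.2% of all genes tested were below the sham range. In TAC replicate 1 only 5 of the 51 were below the sham libraries and 32 were above them. Ndufs8, a subunit of complex I, was at 313, 243 and 249 CPM in TAC and at 370, 364 and 329 CPM in sham libraries (-0.40 ± 0.14, adjusted p = 0.109), and passed without TAC replicate 1 at -0.53 and an adjusted p of 0.0226. Fatty acid oxidation had a median of -0.34 over 32 genes with 0 called, 10 lower at an unadjusted p under 0.05, and 4 lower without TAC replicate 1. There 30 of 32 were below all sham libraries in TAC replicate 2 and 30 in TAC replicate 3, against 18 in TAC replicate 1. Etfdh, which passes electrons from fatty acid oxidation to the respiratory chain, had -0.46 ± 0.19 (adjusted p = 0.179). In the tricarboxylic acid cycle 0 of 20 genes were called, and 5 fell without TAC replicate 1. Among them Idh3a, a subunit of isocitrate dehydrogenase, had -0.37 ± 0.14 with all libraries and -0.50 with an adjusted p of 0.0227 without TAC replicate 1. In the breakdown of branched-chain amino acids 2 of 20 genes fell, Bckdhb of the branched-chain ketoacid dehydrogenase by 0.61 ± 0.17 and Pcca of propionyl-CoA carboxylase by 0.41 ± 0.11. Without TAC replicate 1, 9 of the 20 fell, and without any other single day 2 library 0 were called. Over all genes tested, 0.854% were called lower with all libraries and 4.23% without TAC replicate 1. DESeq2 and limma voom called 0 of the genes of oxidative phosphorylation, fatty acid oxidation and the tricarboxylic acid cycle. Limma voom with sample quality weights called 37 of 51, 22 of 32 and 17 of 20 lower. That fit called 1616 of all 13816 genes tested lower. It gave TAC replicates 1 to 3 weights of 0.311, 2.64 and 0.518, so TAC replicate 2 counted most among the TAC libraries.

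**Figure D4:**
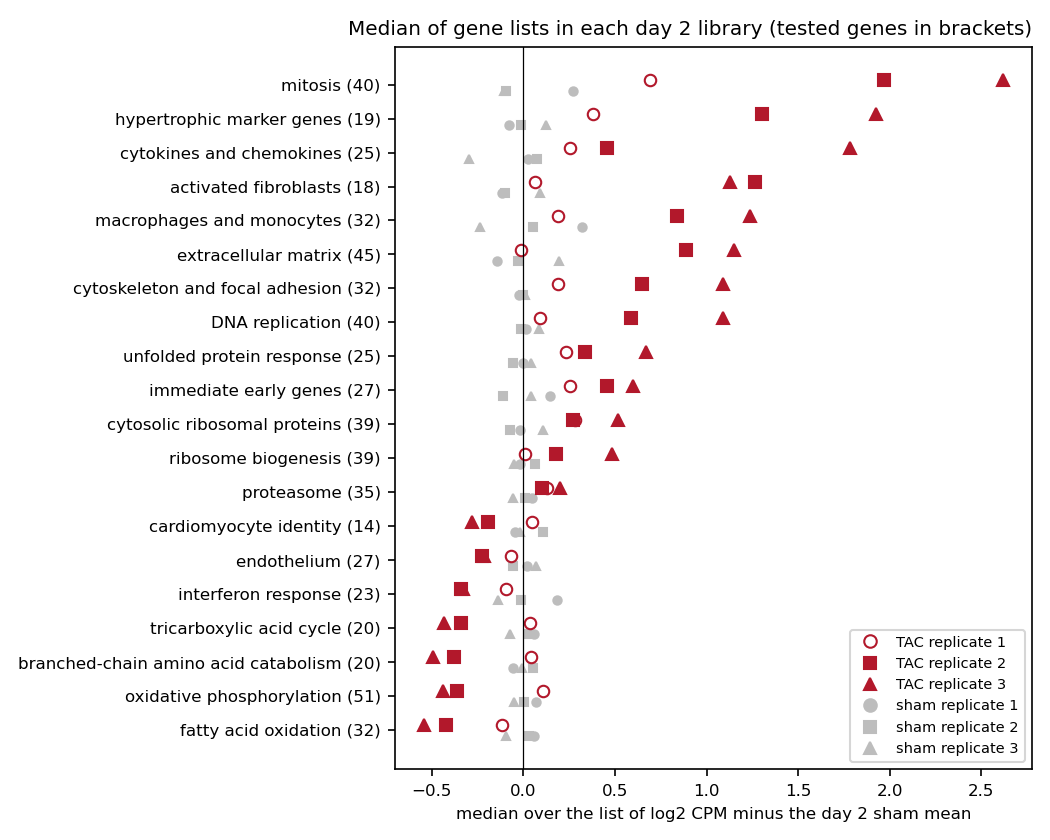
Median over each gene list of log2 CPM minus the mean of the day 2 sham libraries (horizontal axis; each sham library is set against the other 2), with the number of tested genes in brackets; TAC libraries are red above and sham libraries grey below, and the open circle is TAC replicate 1. TAC replicate 1 lies among the sham libraries for the extracellular matrix and on the side of the other TAC libraries for ribosomal proteins and mitosis.

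Calls that did not hang on any single library were few. Of the 633 called genes, 7 were called in all 6 fits that left out 1 day 2 library, namely Prkg1, Lcn2, Plp2, Casq1 and Pfn1 among the higher and Fah and As3mt among the lower genes, while 8 were called in 5 of the fits and 40 in 4. For Lcn2, Casq1, Pfn1 and Fah the largest adjusted p over these 6 fits was 0.0499, just under the threshold. Prkg1, the cyclic GMP-dependent protein kinase that acts downstream of natriuretic peptides, was at 57.1, 49.8 and 45.1 CPM in TAC and at 28.8, 29.0 and 30.8 CPM in sham libraries. TAC replicate 1 was the highest, and Prkg1 rose by 0.78 ± 0.11 (adjusted p = 0.00517). Plp2, a small membrane protein, was at 52.1, 54.7 and 67.1 CPM in TAC and at 33.9, 32.7 and 35.2 CPM in sham libraries and rose by 0.77 ± 0.12 (adjusted p = 0.00517). Casq1, the calcium-binding calsequestrin of skeletal muscle, was at 42.5, 73.8 and 37.2 CPM in TAC and at 3.29, 8.71 and 10.5 CPM in sham libraries and rose by 2.78 ± 0.44 (adjusted p = 0.00570).

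Most genes that rose at day 2 were also higher on later days. The later fold changes use no day 2 library, but both sets of calls share the spread estimated over all 24 libraries, and so are not independent. Of the 515 higher genes, 437 (84.9%) were also called higher in the mean TAC effect of days 4, 7 and 21, where 23.2% of all genes tested were; these 437 are 13.6% of the 3207 genes higher later, and 2 of the 515 were lower later. Of the 118 lower genes, 72 (61%) were called lower later, where 20.4% of all genes tested were, 7 were called higher later, and the 72 are 2.56% of the 2813 genes lower later. By day, 410 of the 515 were called higher at day 4, 272 at day 7 and 16 at day 21, where 1995, 1816 and 86 of the 13816 genes tested were called higher on those days. Of the 118 lower genes, 59 were called lower at day 4, 42 at day 7 and 8 at day 21, where 1399, 1385 and 65 of all genes tested were, and 9 were called higher at day 7 and 2 at day 21.

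The difference between the day 2 effect and the mean later effect passed its own test in 37 genes, 0.268% of those tested, 5 (0.0362%) with a larger and 32 (0.232%) with a smaller value at day 2. It was 58 without TAC replicate 1, 10 without TAC replicate 2, and 2, 3 and 14 without sham replicates 1, 2 and 3. Among the 5 was Casq1, at 2.78 at day 2 and 0.46 (adjusted p = 0.142) on average later, a difference of 2.31 ± 0.50 (adjusted p = 0.0498). Rsad2, Irf7, Herc6 and Oasl2, genes induced by interferon, rose on average later, while at day 2 only Rsad2 among them was called, and it fell. Rsad2, the antiviral protein viperin, was at 21.1, 18 and 16.8 CPM in TAC and at 38.5, 28.7 and 25.4 CPM in sham libraries at day 2 and fell by 0.73 ± 0.18 (adjusted p = 0.0215), while its mean later effect was 0.56 (adjusted p = 0.000187). Irf7, a transcription factor of the interferon response, had -0.38 ± 0.22 at day 2 (adjusted p = 0.365) and 0.94 later (adjusted p = 1.56e-05). Over the list, 1 of 23 interferon genes fell at day 2 and 0 rose, with or without TAC replicate 1, 20 rose later, and 5 passed the test of the difference, where 0.232% of all genes tested had a smaller value at day 2. At day 2, 0 interferon genes were called lower without TAC replicate 2, TAC replicate 3, sham replicate 1 or sham replicate 2. Egln3, an oxygen-sensing prolyl hydroxylase, was at 60.7, 36.3 and 48.5 CPM in TAC and at 108, 99.4 and 70.4 CPM in sham libraries at day 2, and fell by 0.93 ± 0.20 (adjusted p = 0.0133), against a later effect of 0.28. Trp53i11, a p53-inducible gene, fell by 0.69 ± 0.11 at day 2 (adjusted p = 0.00585) and was 0.55 higher later (adjusted p = 4.56e-06). Mest, an imprinted gene of fetal growth, was at 8.12, 7.34 and 10.3 CPM in TAC and at 10.9, 8.05 and 9.18 CPM in sham libraries at day 2 (-0.12 ± 0.26), with overlapping groups, and had 1.58 later (adjusted p = 5.71e-07). Bdh1, which uses ketone bodies, was at 125, 46.6 and 45.4 CPM in TAC and at 109, 132 and 139 CPM in sham libraries. Only its TAC replicate 1 lay in the sham range; it had -0.82 ± 0.26 (adjusted p = 0.0777) with all libraries, fell by 1.46 without TAC replicate 1 (adjusted p = 9.87e-05), and was 0.63 higher later.

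**Figure D5:**
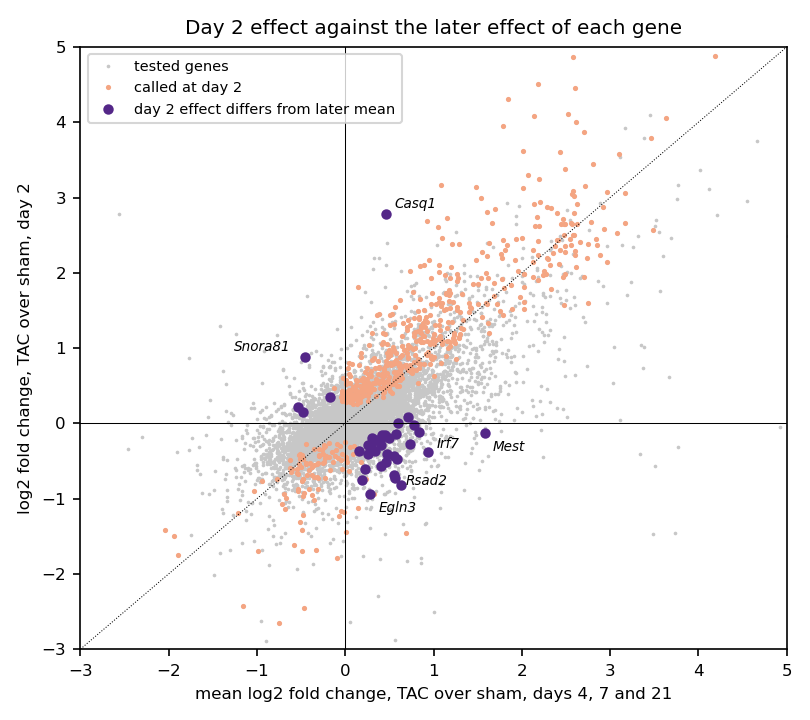
Log2 fold change of TAC over sham at day 2 (vertical axis) against the mean of days 4, 7 and 21 (horizontal axis); each point is 1 tested gene, orange where called at day 2 and purple where the difference of both effects passed its test, and the dotted line marks equal effects. Outside the range of -3 to 5 lie 21 tested genes, among them Esr1, which is not drawn. Casq1 is far above the line and the 32 genes with a smaller day 2 value are below it.

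Markers of other tissues were read beside these results. Of 13 tested atrial marker genes 1 rose, Nppa, and 1 fell, Stard10, a lipid transfer protein, by 1.07 ± 0.24; the list summed to 956 to 1680 CPM in TAC and 330 to 674 CPM in sham libraries. Nppa alone made up 754 to 1541 CPM of the TAC sums, while the list's median log2 fold change was -0.56, 6 of the 13 were lower at an unadjusted p under 0.05, and 3 fell without TAC replicate 1. Of 12 listed epicardial genes 4 were tested, and 1 rose (2 without TAC replicate 1), Aldh1a2, the retinoic acid synthesis enzyme of activated epicardium, at 3.30, 19.2 and 47.0 CPM in TAC and at 3.75, 5.63 and 3.37 CPM in sham libraries. The epicardial list summed to 13.2 to 60.7 CPM in TAC and 14.8 to 19.6 CPM in sham libraries. Of 6 tested blood genes 1 rose, Pf4, a platelet chemokine that macrophages also express, by 1.08 ± 0.18; 0 fell, or 2 without TAC replicate 1. Among 7 tested skeletal muscle markers only Acta1 rose and 0 fell, while 1 fell without TAC replicate 1. Without overlap, 3 of the 7 lay higher and 1 lower in TAC. Their median change was 0.84 on the log2 scale, or 0.10, 0.92 and 0.16 above the sham mean in TAC replicates 1 to 3. Summed levels of these markers were 1890 to 1980 CPM in TAC and 1430 to 1680 CPM in sham libraries. Whether a different share of cells or of captured tissue moved these genes, or Casq1, was not tested.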

How the data were processed

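Read counts per gene and RPKM values were used as the authors deposited them, in tables of 24015 and 23951 genes. Per the submitters' processing notes, TopHat, DESeq and the build hg19, a human one, are named without versions; the mouse build, annotation, counting tool and strand setting are not stated there or in the labels. The deposited counts were tested with edgeR 4.0.16 in R 4.3.3 (filterByExpr, TMM, quasi-likelihood) with 8 group means over all 24 libraries and 16 residual degrees of freedom, and Benjamini-Hochberg adjusted p-values under 0.05 were called. SE is the fold change divided by the root of F. The authors' RPKM served as an alternative on a log2 scale, with limma 3.58.1; DESeq2 1.42.0 and limma voom were others. Library depth was 13072020 to 17281439 counts, and the precision of low genes is limited by it. The script for counts was tested on simulated data. The members and gene lists were chosen with earlier results of these data known. Named genes were, passing over gene models without a name, the called genes with the largest changes at an average log2 CPM of at least 3 without overlap, a fixed set of hypertrophy and matrix genes, the members of each list with the smallest p, the genes whose day 2 and later effects differed most, those most stable to leaving out a library, those gained without TAC replicate 1, and Esr1 and Myl7; not all of these are printed. Promoters came from RefSeq (GRCm38.p6), matched by symbol for 10293 of 13816 tested genes.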

Additional observations from a re-analysis of the deposited data

Results flagged for a closer look

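The TAC effect at day 2 was tested against the mean TAC effect of days 4, 7 and 21 in the quasi-likelihood test of edgeR, with p-values adjusted by Benjamini-Hochberg, and 37 genes passed. The values below are log2 fold changes of TAC over sham, and differences are day 2 minus later with their SE. These genes stand out because both effects differ.
In 5 genes the value at day 2 was the larger. Casq1, skeletal muscle calsequestrin, had 2.78 at day 2 and 0.46 later, a difference of 2.31 ± 0.50 (adjusted p = 0.0498). Snora81, a small nucleolar RNA that lies within an intron of a host gene so that their reads cannot be told apart, had 0.88 at day 2 and -0.46 later, a difference of 1.34 ± 0.23 (adjusted p = 0.0199). Asb5, a muscle protein with ankyrin repeats and a SOCS box, had 0.21 at day 2 and -0.54 later, a difference of 0.75 ± 0.15 (adjusted p = 0.0299). Amotl2, an angiomotin-like protein of cell junctions, had 0.16 at day 2 and -0.47 later, a difference of 0.63 ± 0.12 (adjusted p = 0.0299). Trmt112, a partner of several methyltransferases, had 0.36 at day 2 and -0.17 later, a difference of 0.53 ± 0.11 (adjusted p = 0.046).
Of the 32 genes with the smaller value at day 2, those named here are Mest, Bdh1, Irf7, Rsad2, Trp53i11, Egln3, Herc6 and Oasl2. Mest, an imprinted gene, had -0.12 at day 2 and 1.58 later, a difference of -1.70 ± 0.30 (adjusted p = 0.0218). Bdh1, an enzyme of ketone body use, had -0.82 at day 2 and 0.63 later, a difference of -1.45 ± 0.30 (adjusted p = 0.04). Irf7, an interferon regulatory factor, had -0.38 at day 2 and 0.94 later, a difference of -1.32 ± 0.26 (adjusted p = 0.0299). Rsad2, the antiviral protein viperin, had -0.73 at day 2 and 0.56 later, a difference of -1.29 ± 0.20 (adjusted p = 0.0164). Trp53i11, a p53-inducible gene, had -0.69 at day 2 and 0.55 later, a difference of -1.24 ± 0.13 (adjusted p = 7.2e-05). Egln3, an oxygen-sensing prolyl hydroxylase, had -0.93 at day 2 and 0.28 later, a difference of -1.22 ± 0.23 (adjusted p = 0.0299). Herc6, an interferon-induced ubiquitin ligase, had -0.47 at day 2 and 0.59 later, a difference of -1.06 ± 0.21 (adjusted p = 0.0355). Oasl2, an interferon-induced protein of the oligoadenylate synthetase family, had -0.27 at day 2 and 0.73 later, a difference of -1.002 ± 0.20 (adjusted p = 0.0299).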

How the results depend on the processing

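The number of genes called at day 2 depended on the processing more than the direction of single genes did. Against the 633 calls (515 higher, 118 lower), leaving out 1 day 2 library gave 12 to 1835 calls, 8 to 1242 higher and 3 to 593 lower. Fits of the day 2 libraries alone by edgeR and by limma voom gave 0 calls each, with 2418 and 2355 genes at an unadjusted p under 0.05, and leaving out the 4 libraries over 30 CPM of Myl7, which left 1 sham library at day 2, gave 0 calls with 1447. Setting TAC of day 2 against all 12 sham libraries gave 1761 calls (1268 higher, 493 lower). Myl7 as a covariate gave 1552 (1014 and 538). Limma voom gave 292 (200 higher), and with sample quality weights 3407 (1791 and 1616). Log2(RPKM + 1) gave 140 (108 and 32), log2(RPKM + 0.1) gave 221 (182 and 39), and log2(RPKM + 1) with no filter gave 80 (61 and 19). DESeq2 called 197 lower, within a total of 878. RLE scaling, no filter, a minimum of 5 CPM and DESeq2 on day 2 alone gave 572 to 640 calls.
With the replicate number as a block the count was 213 (173 higher, 40 lower), and 12 genes differed from the later effect. The labels do not pair the libraries: same-numbered TAC and sham libraries had correlations of 0.141, 0.0903 and -0.0463 in their deviations from the group means. Libraries of unlike number had correlations from -0.272 to 0.214.
The 37 genes whose effect differed from later days became 2 to 58 without 1 day 2 library, 0 without the libraries high in Myl7, 531 with quality weights, 8 with log2(RPKM + 1) unfiltered and 137 in DESeq2. Changes of sign were seen in Myh6, at 4.04 with log2(RPKM + 1), with or without a filter, and 5.15 with log2(RPKM + 0.1), in Snora81 at -0.33 and Amotl2 at -0.048 against all 12 sham libraries, and in Mest at 0.00048 without sham replicate 1, within a range of -0.28 to 0.00048 over the fits without 1 library. Myl7 changed sign to 0.22 with itself as covariate, 8.84 without the libraries high in it, and 0.15 with quality weights. The deposited RPKM table lists Myh6 at 0 in a sham library whose count is high. Other causes were not tested. Of 79 named genes called at day 2, 31 kept their call in all alternatives other than leaving out a library, the Myl7 exclusion and the fits on day 2 alone, and 7 kept it in all 6 fits without 1 library. Depth and 3 libraries a group limit the precision of genes with few reads.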

Other observations

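TAC replicate 1 lay more than 2-fold above all other 23 libraries in 7 genes and more than 2-fold below all of them in 24. These 31 genes were chosen after their values were seen, and in RefSeq (GRCm38.p6) 8 of them (25.8%) are on chromosome 4, where 6.25% of the tested genes are, 6 (19.4%) on chromosome 6, where 5.07% are, 5 (16.1%) on chromosome 1, where 5.89% are, and 4 (12.9%) on chromosome 5, where 6.26% are. The other 23 libraries had 0 to 19 genes more than 2-fold above all others and 0 to 17 below.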
